A study of Mus musculus with 31 samples.

Results

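The 7 genes Tmem141, Cryl1, Coro7, Agtr2, Socs3, Vstm2a and Wdr41 are among the 12 genes whose mean level was furthest higher in medial olivocochlear (MOC) than in lateral olivocochlear (LOC) neurons of the mouse brainstem. They are 7 of 17754 measured genes, out of 55421 rows with mouse identifiers, and each was found under its symbol and matched by its Ensembl identifier to the raw counts. Genes were taken as measured if 25% or more of the MOC cells, or of the LOC cells, had a read. The libraries were 13 MOC neurons, patched in the ventral nucleus of the trapezoid body, and 18 LOC neurons, patched in the lateral superior olive, with 1 cell per library. All came from acute slices of ChAT-IRES-Cre; tdTomato mice, in which Cre made in choline acetyltransferase cells switches on a red protein, and the labels give every cell as wild-type and as sequenced after patch clamp. The red cells were recorded, their cytoplasm was drawn into the pipette, and cDNA made from it by Smart-seq2, a PCR method that copies whole polyadenylated transcripts, was sequenced. Age, sex and animal are not given in the labels, so each group is 1 sample, no difference was tested, and each SD below is a spread between cells.

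MOC neurons are cholinergic cells that send axons to the outer hair cells of the cochlea and lower its amplification of sound, while LOC neurons end mainly on auditory nerve fibres below the inner hair cells. The 7 genes have unlike roles. Agtr2 encodes the type 2 receptor for angiotensin II and Socs3 an inhibitor of cytokine receptors that STAT factors induce. Coro7 and Wdr41 encode WD-repeat proteins, the first of the Golgi apparatus and the second a partner of the C9orf72 and SMCR8 proteins at lysosomes. Vstm2a encodes a secreted protein with an immunoglobulin domain, Cryl1 a dehydrogenase of the pathway that breaks down glucuronate, and Tmem141 a small membrane protein.

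The MOC libraries held between 598028 and 2627174 counts, and the LOC libraries between 356412 and 1404896. Levels are given as CPM, the counts of a gene in 1000000 counts of mouse genes. A count of 0 allows up to 3 counts, which was 1.14 CPM in the deepest library and 8.42 CPM in the shallowest. Some libraries held few reads of 3 cholinergic genes. Fewer than 10 reads of Chat, Slc18a3 and Slc5a7 together were present in 5 MOC libraries (cells 4, 8, 9, 12 and 13) and 4 LOC libraries (cells 7, 9, 14 and 16), and 0 in MOC cell 8 and LOC cells 14 and 16. Over 8 cholinergic markers, these 3 among them, those MOC cells had 288, 4, 75, 14 and 6 reads in the order named. The LOC cells had 9, 6, 2 and 1. Whether these cells are of the labelled types was not tested. Microglial transcripts went with the group. Of 12 microglial markers 7 met the size rule given below in MOC and 0 in LOC, their sum ran from 40.7 to 11139 CPM in MOC cells and from 32.4 to 2253 CPM in LOC cells, and each marker had reads in both groups. Over all measured genes 5.67% met that rule in MOC and 6.07% in LOC. Of 12 oligodendrocyte markers 2 met the rule in MOC and 0 in LOC. By the mean of log2(CPM + 1), 4 of these 12 were higher in MOC and 8 were lower. The 12 summed to 366 to 123633 CPM in MOC cells and 22.7 to 238689 CPM in LOC cells. The 11 astrocyte markers (1 in MOC, 0 in LOC) summed to 662 to 7724 CPM in MOC cells and 921 to 7414 CPM in LOC cells. By the same mean 3 of them were higher in MOC and 8 were lower. The 4 markers of inhibitory neurons (1 in MOC, 0 in LOC) summed to 10.1 to 2990 CPM in MOC cells and 0 to 949 CPM in LOC cells. Of 12 markers of blood vessel cells, which summed to 1.51 to 145 CPM in MOC cells and 0 to 113 CPM in LOC cells, 0 of the 11 measured met the rule, and Tagln was at 0 in LOC. Of 8 cholinergic markers 0 met the rule in MOC and 2 in LOC. Of 4 peptide markers of LOC neurons 0 met it in MOC and 4 in LOC. Of 2 measured glutamatergic markers 0 met it in either group. By the mean of log2(CPM + 1), 12 of 12 microglial, 9 of 11 blood vessel and 3 of 4 inhibitory markers were higher in MOC. The 8 cholinergic, 4 peptide and 2 glutamatergic markers were all lower in MOC. The part of other cells in the values below was not tested, and each gene is also given in the 8 MOC and 14 LOC libraries with at least 10 cholinergic reads and with MOC cells 7, 8 and 12 left out, where the microglial sum was highest.

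The genes had been picked on the difference of the means of log2(CPM + 1), MOC minus LOC, among genes with a read in at least 50% of MOC cells, so that difference is a description here. By it Tmem141 stood at rank 1, Cryl1 at 2, Coro7 at 3, Socs3 at 4, Agtr2 at 7, Vstm2a at 8 and Wdr41 at 11. The last gene inside the 12 was Ckmt1 with a difference of 2.71, and the next outside was Me3 with 2.70. The median difference of the 7 genes was 2.96, beside 0.07 over all measured genes. The size rule has 3 clauses, namely a ratio of summed CPM of 2 or more, a mean difference of 1 or more, and reads in 25% or more of the cells of the group with the higher level. It was met in MOC by 7 of the 7 genes and by 5.67% of measured genes, and in LOC by 6.07%, from which nothing follows, since the choice of the genes fixed it. Without the clause on cells 2.7% of genes with any read met it in MOC. A read in at least 50% of MOC cells, which the choice also required, was found for 66% of measured genes and 91% of the 1007 genes that met the rule in MOC.

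**Figure D1:**
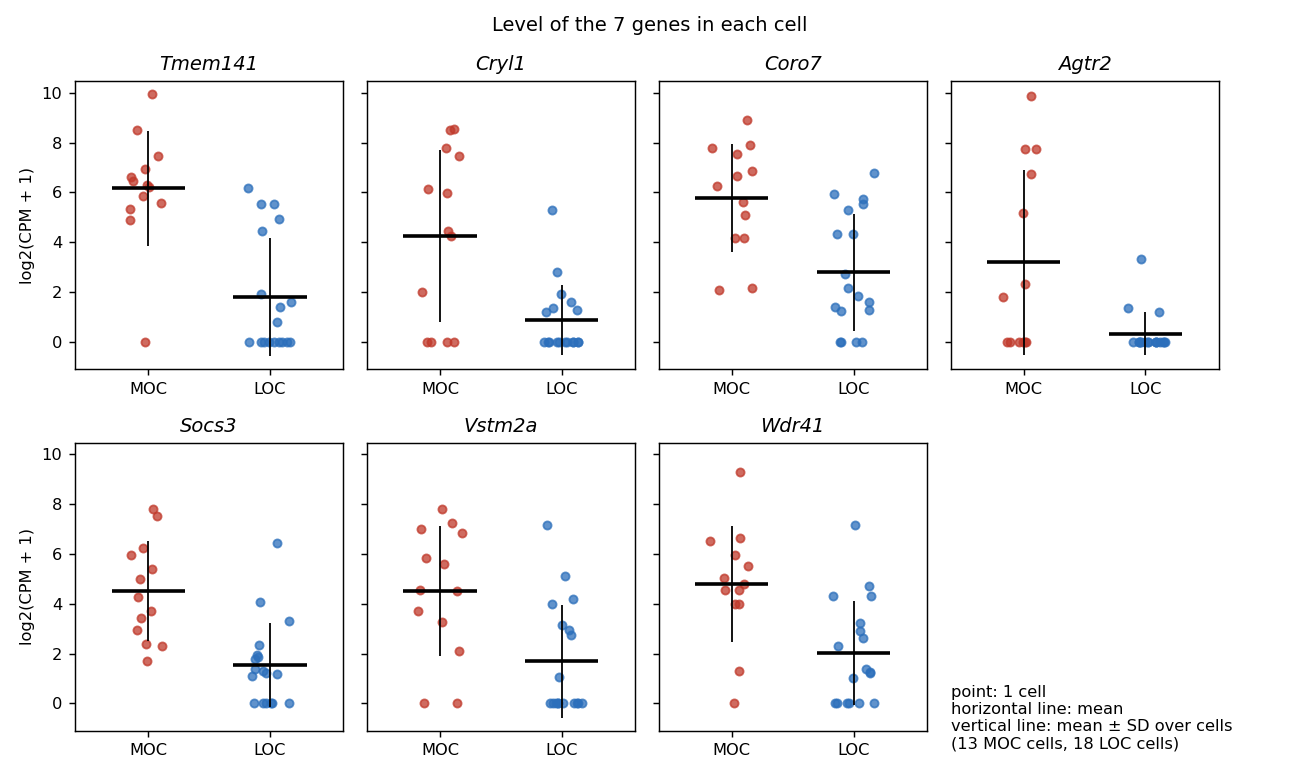
Log2(CPM + 1) of each gene in each of 13 MOC and 18 LOC cells (points), with the mean and SD over cells (lines). Tmem141 was above its highest LOC cell in 8 of 13 MOC cells, whereas Wdr41 was so in 1 of 13. At least 1 such cell was found for 7 of the 7 genes and for 48.5% of measured genes. Nothing follows from this, since the genes were chosen on the same cell values.

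Agtr2 was read at high level in 5 MOC cells and with few reads in LOC cells. The gene (ENSMUSG00000068122) lies on chromosome X at 21484544 to 21489164 (plus strand, GRCm38). Its lowest, median and highest values were 0, 2.44 and 935 CPM in MOC cells, and 0, 0 and 8.86 CPM in LOC cells. MOC cells 2, 3, 10, 1 and 6 were high, with 838, 285, 193, 107 and 26 reads, MOC cells 9 and 12 had 4 and 2 reads, and the other 6 had 0, so the groups overlapped at 0 and at the lowest values above it. Among LOC cells there were 6 reads in cell 6 and 1 each in cells 10 and 18. The summed counts gave 107 CPM in MOC (exact 95% Poisson interval 101 to 112) and 0.56 CPM in LOC (0.24 to 1.11). These intervals cover counting error only, as Smart-seq2 reads carry no molecular identifiers. Reads were present in 7 of 13 MOC cells (53.8%, exact 95% Clopper-Pearson interval 25.1 to 80.8) and 3 of 18 LOC cells (16.7%, 3.58 to 41.4). The means were 3.18 ± 3.72 in MOC and 0.32 ± 0.85 in LOC (SD, 13 and 18 cells), a difference of 2.86.

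A single cell weighed most on Agtr2. MOC cell 2 held 57.6% of its MOC reads, and the summed value without that cell was 48.4 CPM. More than 50% of the MOC reads in 1 cell was found for 1 of the 7 genes, Agtr2, for 32.1% of measured genes with a MOC read and for 33.7% of those that met the size rule in MOC. The mean difference without MOC cell 2 was 2.30, the lowest with any of the 31 cells left out. In LOC, cell 6 held 75.0% of the 8 reads, and the summed value was 0.15 CPM without it. The 5 MOC cells with 26 or more reads of Agtr2 each had cholinergic reads, namely 45 in cell 2, 914 in cell 3, 689 in cell 10, 283 in cell 1 and 206 in cell 6. MOC cell 5, with the most cholinergic reads in its group at 997, had 0 reads of Agtr2. In libraries with at least 10 cholinergic reads (8 MOC and 14 LOC) the summed values were 160 CPM in MOC and 0.66 CPM in LOC, and the mean difference was 4.24. With MOC cells 7, 8 and 12 left out, which had 0, 0 and 2 reads of Agtr2, they were 166 CPM in MOC and 0.56 CPM in LOC, with a difference of 3.63.

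No other gene of the renin-angiotensin system met the size rule. Of 16 listed genes 12 were measured, 0 met the rule in either group, beside 5.67% of all measured genes in MOC and 6.07% in LOC, and the median difference was 0.04. In a list this short a count of 0 or 1 is near those shares. Agtr1a, the gene of a type 1 angiotensin receptor, had 4 reads in 4 MOC cells and 12 reads in 5 LOC cells. Agtr1b, the gene of the other type 1 receptor, had 2 reads in MOC and 0 in LOC. Agt, which encodes the precursor of angiotensin and is made mainly by astrocytes in brain, had 121 CPM in MOC and 63.2 CPM in LOC, with a mean difference of -0.21, and MOC cell 7 held 55.6% of the MOC reads.

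Socs3 was read in every MOC cell, at widely different levels. It lies on chromosome 11 at 117966079 to 117970047 (minus strand, ENSMUSG00000053113). Its lowest, median and highest values were 2.26, 18.4 and 221 CPM in MOC cells, and 0, 1.42 and 84.7 CPM in LOC cells. MOC cells 8 and 13 stood above the highest LOC cell, cell 5, and the other MOC cells lay within the LOC range. The summed counts gave 53.5 CPM in MOC (49.6 to 57.5) and 10.6 CPM in LOC (8.97 to 12.4), and the means were 4.51 ± 1.99 and 1.55 ± 1.70, a difference of 2.96. Reads were in 13 of 13 MOC cells (75.3 to 100%) and 12 of 18 LOC cells (66.7%, 41.0 to 86.7), but at least 5 reads in 10 of 13 and 3 of 18.

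MOC cell 8, with 44.0% of the MOC reads of Socs3, also had the highest sums of microglial markers, at 11139 CPM, and of inhibitory markers, at 2990 CPM. MOC cell 13, the next highest at 181 CPM, had 167 CPM of microglial markers. MOC cells 8 and 13 had 0 and 1 cholinergic reads, and 4 and 6 reads of the 8 cholinergic markers. The summed MOC value was 33.5 CPM without MOC cell 8, and the summed LOC value was 2.49 CPM without LOC cell 5, which held 78.8% of the LOC reads. With MOC cells 7, 8 and 12 left out, where microglial markers were highest, the mean difference was 2.41, with 30.3 CPM in MOC and 10.6 CPM in LOC. In libraries with at least 10 cholinergic reads Socs3 had 19.1 CPM in MOC and 12.1 CPM in LOC, a ratio of 1.57, and no longer met the size rule. The mean difference there was 1.85.

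Among 24 measured genes of cytokine receptors, JAK kinases, STAT factors and other SOCS proteins, 1 met the size rule in MOC and 2 in LOC, beside 5.67% and 6.07% of all measured genes, with a median difference of -0.14. Il6st, which encodes gp130, the receptor chain that Socs3 protein binds, was the MOC gene, at 42.6 CPM in MOC and 11.9 CPM in LOC (difference 1.23). The LOC genes were Stat3, the main factor below gp130, at 37.3 CPM in MOC and 121 CPM in LOC (difference -2.51), and Lifr, the gene of a receptor partner of gp130, at 23.5 CPM in MOC and 68.7 CPM in LOC (difference -1.05).

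Tmem141 had the widest difference of the 7. It lies on chromosome 2 at 25620067 to 25622005 (minus strand, ENSMUSG00000026939). The lowest, median and highest values were 0, 77.3 and 985 CPM in MOC cells and 0, 0.36 and 70.4 CPM in LOC cells. MOC cell 4 was highest and MOC cell 2 next at 361 CPM, MOC cell 13 had 0 reads, and 8 of 13 MOC cells lay above the highest LOC cell, cell 8. MOC cells 4, 2 and 13 had 3, 45 and 1 cholinergic reads. At least 6 MOC cells above the highest LOC cell were found for 2 of the 7 genes, Tmem141 and Cryl1, and for 0.406% of measured genes, from which nothing follows, since the genes were chosen on the same cell values. At least 5 reads were present in 12 of 13 MOC and 5 of 18 LOC cells. MOC cell 4 held 33.2% of the MOC reads, and the summed MOC value of 136 CPM was 94.97 CPM without it, against 11.2 CPM in LOC. The difference of means was 4.36 and ranged from 4.05 without MOC cell 4 to 4.88 without MOC cell 13. Tmem141 in libraries with at least 10 cholinergic reads had 96.9 CPM in MOC and 12.95 CPM in LOC (difference 4.19), and with MOC cells 7, 8 and 12 left out 167 CPM in MOC and 11.2 CPM in LOC (difference 4.31). The antisense gene Fcnaos spans Tmem141 on the other strand, with 25 reads in MOC and 11 in LOC. In libraries without strand, reads from any sequence that both transcripts share cannot be told apart. How much they share was not examined.

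Vstm2a, which in mouse promotes the commitment of fat cell precursors, was read in 11 MOC and 8 LOC cells, and 1 LOC cell reached the level of the highest MOC cells. It lies on chromosome 11 at 16257724 to 16427310 (plus strand, ENSMUSG00000048834). The lowest, median and highest values were 0, 22.8 and 223 CPM in MOC cells and 0, 0 and 143 CPM in LOC cells. MOC cells 4 and 9 exceeded the highest LOC cell, cell 14, and MOC cells 3 and 5 had 0 reads. MOC cells 4 and 9 had 3 and 6 cholinergic reads, and 288 and 75 reads of the 8 cholinergic markers. Reads were in 11 of 13 MOC cells (84.6%, 54.6 to 98.1) and 8 of 18 LOC cells (44.4%, 21.5 to 69.2). The summed values were 54.7 CPM in MOC (50.9 to 58.8) and 11.8 CPM in LOC (10.1 to 13.7), with SDs over cells on the log2 scale of 2.61 and 2.26. LOC cell 14, a library with 0 cholinergic reads, held 60.1% of the LOC reads, and the LOC value was 4.94 CPM without it. No MOC cell held more than 19.8% of the MOC reads. In libraries with at least 10 cholinergic reads the values were 30.8 CPM in MOC and 5.33 CPM in LOC, and the mean difference, 2.81 with all cells, was 1.90. With MOC cells 7, 8 and 12 left out they were 60.5 CPM in MOC and 11.8 CPM in LOC (difference 2.65). Of 4 measured relatives 0 met the size rule in either group, beside 5.67% of all measured genes in MOC and 6.07% in LOC. Their median difference was -0.11. In a list this short a count of 0 is near those shares.

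Coro7 was read in all MOC cells and in most LOC cells. It lies on chromosome 16 at 4626133 to 4679777 (minus strand, ENSMUSG00000039637). The lowest, median and highest values were 3.21, 76.4 and 475 CPM in MOC cells and 0, 3.001 and 110 CPM in LOC cells. MOC cells 5, 3, 13, 8 and 10 exceeded the highest LOC cell, cell 10, and MOC cells 4 and 7 were low, with 2 and 9 reads. The summed values were 102 CPM in MOC (96.9 to 108) and 19.2 CPM in LOC (17.01 to 21.6), the means 5.78 ± 2.16 and 2.79 ± 2.35, and the difference 2.99. No cell held more than 22.4% of the MOC or 25.5% of the LOC reads. Coro7 in libraries with at least 10 cholinergic reads had 93.3 CPM in MOC and 19.6 CPM in LOC (difference 2.87), and with MOC cells 7, 8 and 12 left out 125 CPM in MOC and 19.2 CPM in LOC (difference 3.25). Reads of Coro7 can be shared with Vasn and Dnaja3, which lie within or across it on the other strand. Dnaja3, the gene of a mitochondrial chaperone, also met the size rule in MOC, at 103 CPM in MOC and 26.2 CPM in LOC, while Vasn had 62.9 CPM in MOC and 58.4 CPM in LOC. In MOC cell 3, with the most reads of Coro7 at 312, Dnaja3 had 38 reads and Vasn 0. Across the 31 cells, which differ in depth, r with Coro7 was 0.26 for Dnaja3 and -0.06 for Vasn.

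The other coronins showed no common direction. Of 6 measured genes of the family 3 had a difference above 0 and 3 below, 1 met the size rule in MOC and 1 in LOC, beside 5.67% and 6.07% of all measured genes, and the median difference was -0.08. Coro1c, an actin-binding coronin of many cell types, had 88.6 CPM in MOC and 32.1 CPM in LOC (difference 1.96), and Coro6 had 52.7 CPM in MOC, 81.9% of it in MOC cell 5, and 132 CPM in LOC (difference -1.67). Coro1a, a coronin of immune cells and neurons, had 134 CPM in MOC, 41.9% of the reads in MOC cell 8, and 90.1 CPM in LOC. Coro1b had 69.4 CPM in MOC and 147 CPM in LOC, and neither it nor Coro1a met the rule.

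Wdr41 was read in 12 of 13 MOC and 12 of 18 LOC cells. It lies on chromosome 13 at 94976344 to 95023314 (plus strand, ENSMUSG00000042015). The lowest, median and highest values were 0, 26.4 and 625 CPM in MOC cells and 0, 1.51 and 144 CPM in LOC cells. MOC cell 4 was the one MOC cell above the highest LOC cell, cell 5, and MOC cell 9 had 0 reads. The summed values were 67.5 CPM in MOC (63.2 to 71.97) and 18.7 CPM in LOC (16.5 to 21.1), and the means were 4.78 ± 2.33 and 2.03 ± 2.09. MOC cell 4 held 42.3% of the MOC reads, and the MOC value was 40.8 CPM without it. That library had 3 reads of Chat, Slc18a3 and Slc5a7 together but 288 of the 8 cholinergic markers. LOC cell 5 held 75.7% of the LOC reads, and the LOC value was 5.06 CPM without it. In libraries with at least 10 cholinergic reads, which leave out MOC cell 4 but keep LOC cell 5, the ratio of 39.9 CPM in MOC to 21.4 CPM in LOC was 1.86 and below the size rule, while the mean difference was 2.87. With MOC cells 7, 8 and 12 left out Wdr41 had 72.3 CPM in MOC and 18.7 CPM in LOC (difference 2.47). The overlapping Gm48350, on the other strand, had 32 reads in MOC and 12 in LOC, with 0 in MOC cell 4.

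Partners of Wdr41 protein showed no common direction either. Of 6 measured genes of the C9orf72 complex and its partners in autophagy, 2 had a difference above 0 and 4 below, 2 met the size rule in MOC and 1 in LOC, beside 5.67% and 6.07% of all measured genes, and the median difference was -0.13. C9orf72 had 44.5 CPM in MOC and 65.2 CPM in LOC. Smcr8, the third member of the complex, had 19.9 CPM in MOC and 1.75 CPM in LOC (difference 1.16), but 74.6% of its MOC reads came from MOC cell 13. Ulk1, a kinase that starts autophagy, had 77.95 CPM in MOC and 34.4 CPM in LOC (difference 1.24), and Atg101, a subunit of the ULK1 complex, had 29.1 CPM in MOC and 60.7 CPM in LOC (difference -1.27).

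Cryl1 was high in some MOC cells and absent from others. It lies on chromosome 14 at 57274993 to 57398529 (minus strand, ENSMUSG00000021947). The lowest, median and highest values were 0, 20.7 and 371 CPM in MOC cells and 0, 0 and 38.1 CPM in LOC cells. MOC cells 13, 8, 5, 3, 9 and 11 lay above the highest LOC cell, cell 12. Those MOC cells had 1, 0, 997, 914, 6 and 10 cholinergic reads in that order. MOC cells 2, 4, 6 and 10 had 0 reads of Cryl1, with 45, 3, 206 and 689 cholinergic reads. At least 5 reads were present in 8 of 13 MOC cells and in 1 of 18 LOC cells. The summed values were 99.0 CPM in MOC (93.8 to 104) and 2.52 CPM in LOC (1.77 to 3.50), and the means were 4.24 ± 3.46 and 0.86 ± 1.41, a difference of 3.38. MOC cell 8 held 39.4% of the MOC reads, with 67.1 CPM left without it. LOC cell 12 held 72.2% of the 36 LOC reads, with 0.74 CPM left without it. The 3 short genes and pseudogenes annotated within Cryl1 held at most 4 reads per group. In libraries with at least 10 cholinergic reads Cryl1 had 52.3 CPM in MOC and 2.79 CPM in LOC (difference 2.58), and with MOC cells 7, 8 and 12 left out 86.3 CPM in MOC and 2.52 CPM in LOC (difference 2.93).

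Of 9 measured genes listed for glucuronate and pentose metabolism, 2 met the size rule in MOC and 0 in LOC, beside 5.67% and 6.07% of all measured genes, with a median difference of 0.43. Sord, the gene of sorbitol dehydrogenase, had 29.3 CPM in MOC, 48.9% of the reads in MOC cell 5, and 6.73 CPM in LOC (difference 1.41). Khk, the gene of ketohexokinase, had 19.9 CPM in MOC, 58.1% of the reads in MOC cell 10, and 4.91 CPM in LOC (difference 1.25).

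**Figure D2:**
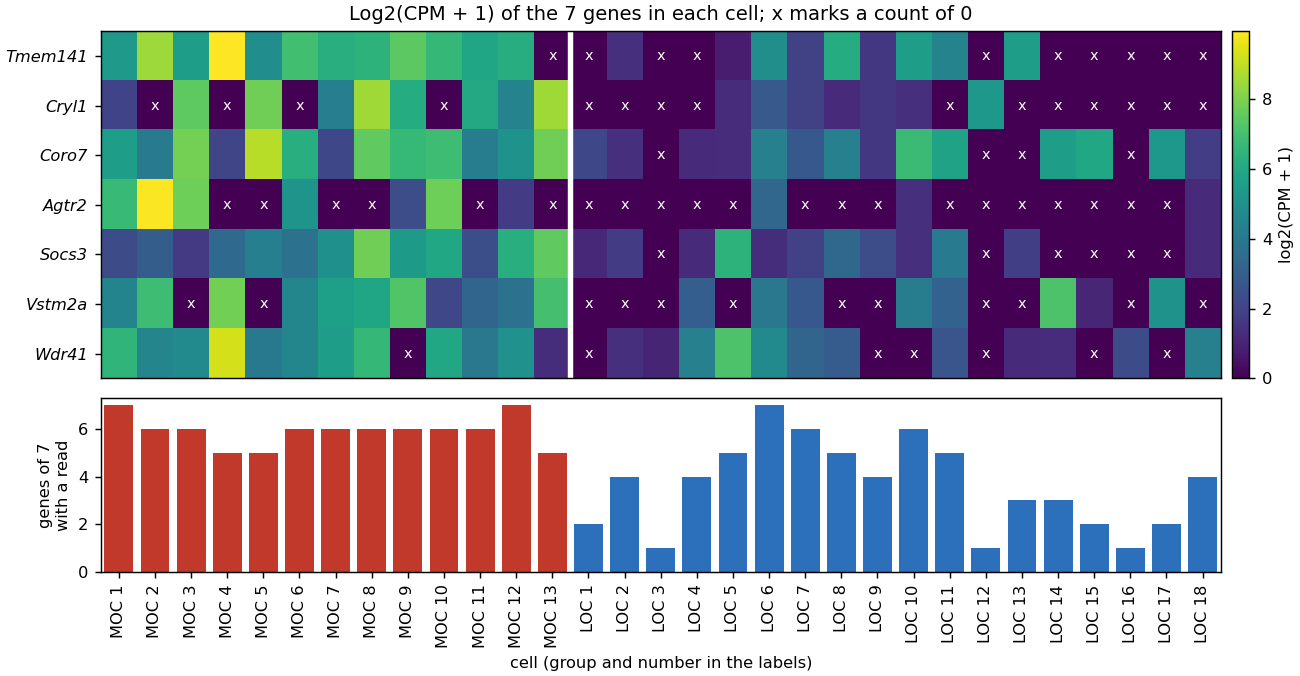
Upper panel, log2(CPM + 1) of the 7 genes (rows) in the 31 cells (columns, MOC cells first), with an x at a count of 0. Lower panel, the number of the 7 genes with a read in each cell, which was 5 to 7 in MOC cells and 1 to 7 in LOC cells.

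Each MOC cell held reads of most of the 7 genes, yet not the same ones at high level. The number of the 7 genes with a read was 5.92 ± 0.64 per MOC cell (SD, 13 cells, range 5 to 7) and 3.61 ± 1.85 per LOC cell (18 cells, range 1 to 7), so the groups overlapped. All 7 were read in MOC cells 1 and 12 and in LOC cell 6. With at least 5 reads as the threshold the range was 4 to 6 in MOC cells, with a median of 5, and 0 to 5 in LOC cells, with a median of 1. Genes with a read numbered 8572 to 19231 in MOC cells and 6654 to 18414 in LOC cells. LOC cell 6, with 18414 genes, had the most in its group. LOC cell 7 held 6 of the 7 genes, each with fewer than 5 reads, among 15169 genes. MOC cell 5, which had the fewest genes of its group at 8572, held 5 of the 7. After each cell was thinned to 350000 counts, which kept every cell, the number was 5.77 ± 0.83 in MOC (range 4 to 7) and 2.83 ± 1.95 in LOC (range 0 to 7). The difference of 2.31 genes per cell with all reads was 2.94 with thinned reads. The genes were chosen for reads in at least 50% of MOC cells and for a wide difference, so a higher number in MOC cells follows from the choice.

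**Figure D3:**
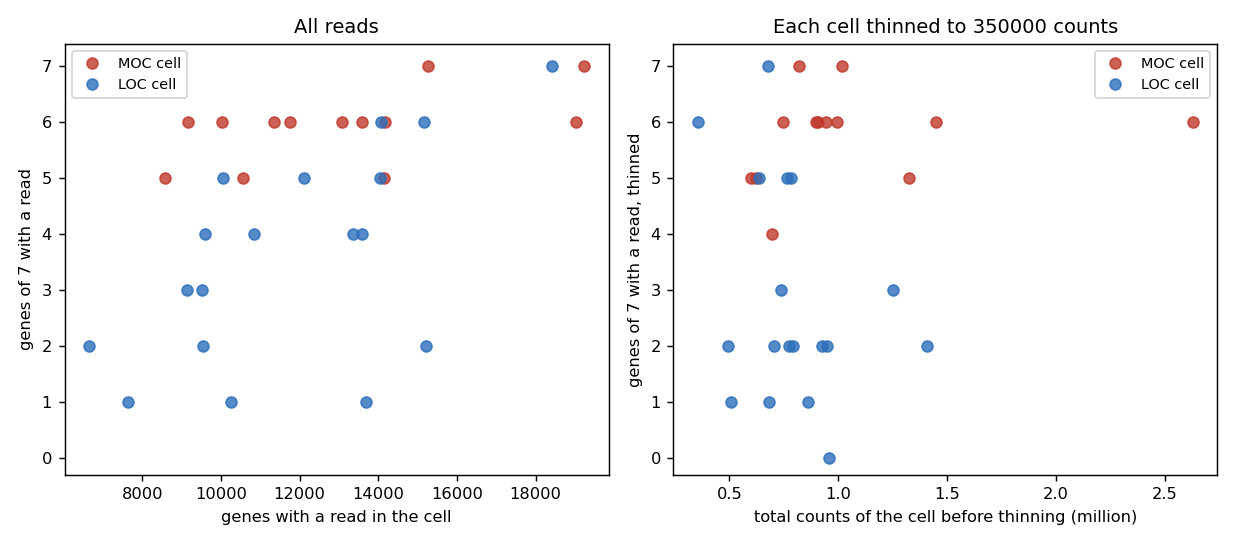
Number of the 7 genes with a read per cell (vertical axes) against genes with a read in the cell (left, all reads) and against the cell's total counts (right, after thinning to 350000 counts). Each point is 1 cell. MOC cells lie at 5 to 7 genes on the left and 4 to 7 on the right, and LOC cells at 1 to 7 and 0 to 7.

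Over the 21 pairs of the 7 genes, reads of both were present in a median of 9 of 13 MOC cells (range 4 to 13) and 5 of 18 LOC cells (2 to 11). Coro7 and Socs3 were read together in 13 of 13 MOC and 11 of 18 LOC cells. The fewest shared cells were those of Agtr2 and Cryl1, with 4 of 13 MOC and 2 of 18 LOC cells. With at least 5 reads of each, Agtr2 and Cryl1 shared 1 MOC cell, cell 3. Agtr2 alone was in cells 1, 2, 6 and 10, with 283, 45, 206 and 689 cholinergic reads. Cryl1 alone was in 7 others. Among these, cells 5, 7 and 11 had 997, 28 and 10 cholinergic reads. Cells 8, 9, 12 and 13 had 0, 6, 9 and 1. Whether the pattern goes with the identity of the cells was not tested. Levels within MOC cells did not follow a common order. Pearson's r of log2(CPM + 1) over the 13 MOC cells ran from -0.62 for Tmem141 and Cryl1 to 0.55 for Cryl1 and Coro7, with a median over the 21 pairs of -0.21. Tmem141 and Wdr41 had r = 0.51, with MOC cell 4 highest for both. These cells share the protocol but differ in depth, and values of r this size in sparse counts of 13 cells are a description only. By CPM MOC cell 4 was highest for Tmem141, Vstm2a and Wdr41, MOC cell 2 for Agtr2, MOC cell 5 for Coro7, MOC cell 8 for Socs3 and MOC cell 13 for Cryl1. MOC cells 4, 8 and 13 had 3, 0 and 1 cholinergic reads, and MOC cells 2 and 5 had 45 and 997.

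**Figure D4:**
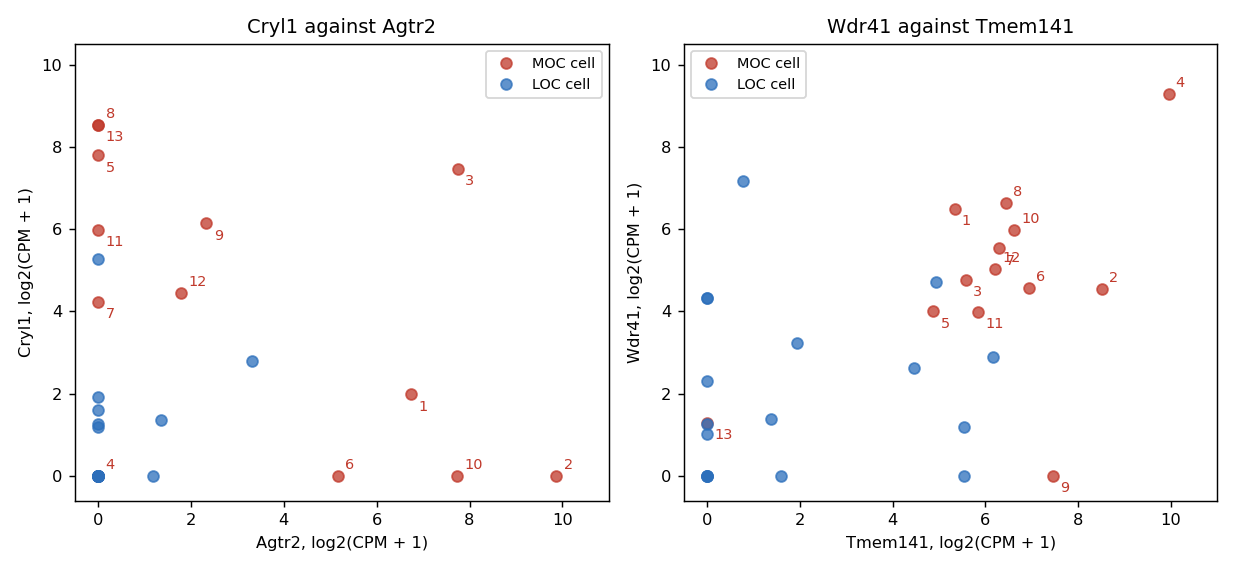
Log2(CPM + 1) of Cryl1 against Agtr2 (left) and of Wdr41 against Tmem141 (right), 1 point per cell, with MOC cells numbered. On the left MOC cells 2, 6 and 10 had Agtr2 without a read of Cryl1, and on the right MOC cell 4 was highest for both genes.

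The genes most like each of the 7 over all 31 cells, were ranked by r of log2(CPM + 1) among measured genes. Such r includes the difference between the groups, and only the highest values are named. Within the groups the order was another. Over the 13 MOC cells r of the named genes with their member ran from 0.36 (Mgat1) to 0.81 (Gm36756), and over the 18 LOC cells from -0.13 (Chrna2) to 0.75 (Tcn2). Ranked over MOC cells alone, Ap4e1 stood at 6 for Socs3, while Prima1 stood at 2387 for Tmem141, Vapa at 2146 for Vstm2a and Mgat1 at 1517 for Socs3. For Tmem141 they were Clip3 (r = 0.72), C330007P06Rik (0.66) and Prima1 (0.66), the gene of the membrane anchor of acetylcholinesterase. For Cryl1 they were Zfp12 (0.64), Rabepk (0.63) and Mad1l1 (0.60), and for Coro7 Cpne6 (0.65), Lrpprc (0.64) and Gsto1 (0.63). For Agtr2 they were Gm36756 (0.79), Chrna2 (0.75), the gene of a nicotinic receptor subunit, and Klhl14 (0.74), of which Gm36756 and Klhl14 had at most 3 reads in any cell. For Socs3 they were Ap4e1 (0.73), Mgat1 (0.67) and Gm7832 (0.64), the last with at most 6 reads in any cell. For Vstm2a they were Dyrk1b (0.69), Celf4 (0.68) and Vapa (0.68). For Wdr41 they were Tcn2 (0.74), Gata1 (0.65), with at most 2 reads in any cell, and Uqcr10 (0.65). Over all 31 cells the highest r between members of the 7 themselves was 0.54, for Tmem141 and Wdr41.

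In the 250 bases before the RefSeq start (GRCm38.p6), which were found for 7 of the 7 genes, Agtr2 had the lowest content of G and C, 38.4%, and 3 CpG dinucleotides. The other 6 had between 51.6% (Tmem141) and 71.6% (Socs3) G and C and between 12 and 28 CpG, beside medians of 52% and 6 over 27025 promoters. The 120 bases before the outermost start in RefSeq and GENCODE are shown for Tmem141, the gene with the widest difference, and for Cryl1 and Agtr2, the pair with the fewest shared cells, each written 5′ to 3′ on the gene's strand with the GC box GGGCGG or its complement in capitals.
Tmem141, chr2:25622006-25622125, minus strand: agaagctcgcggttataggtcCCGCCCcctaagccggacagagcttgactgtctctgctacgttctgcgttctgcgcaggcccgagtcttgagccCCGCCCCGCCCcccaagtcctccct
Cryl1, chr14:57398530-57398649, minus strand: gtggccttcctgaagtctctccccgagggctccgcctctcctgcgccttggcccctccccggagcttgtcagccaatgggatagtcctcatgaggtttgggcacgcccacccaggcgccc
Agtr2, chrX:21484424-21484543, plus strand: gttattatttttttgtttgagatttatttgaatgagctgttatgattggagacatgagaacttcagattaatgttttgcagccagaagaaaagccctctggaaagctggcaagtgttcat
The GC box, searched on both strands of the 250 bases, was present for Tmem141 (3 matches, 2 of them overlapping by 1 base), Vstm2a and Socs3, that is for 3 of 7, and for 32.9% of all promoters. The TATA box core TATAAA was present for 0 of 7 and for 12.97% of all promoters. The STAT element TTCNNNGAA was present for Socs3 and not for the other 6, and for 7.18% of all promoters. These are matches of letters, and no factor was measured at them.

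With each of the 31 cells left out in turn, 7 of the 7 genes still met the rule in MOC every time, as did 36.3% of the 1007 genes that met it with all cells, or 2.06% of measured genes. The genes had been chosen for wide differences, so this share describes them and supports nothing. Medians over cells were higher in MOC by at least 1 for 7 of the 7, for 77.5% of the 1007 genes and for 15.3% of measured genes. The genes were chosen on these same cell values, so nothing follows from the medians or from the counts given next. With libraries of at least 10 cholinergic reads 5 of the 7 met the rule, all but Socs3 and Wdr41, beside 6.9% of the 20420 genes measured in those libraries. Without the 3 libraries highest in microglial markers 7 of 7 met it, with differences between 2.41 (Socs3) and 4.31 (Tmem141). The share was 5.83% of the 18139 genes measured in the libraries kept. Without the 3 libraries highest in oligodendrocyte markers (LOC cells 2, 9 and 17) 7 of 7 met it, beside 4.98% of 18231 genes.

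**Figure D5:**
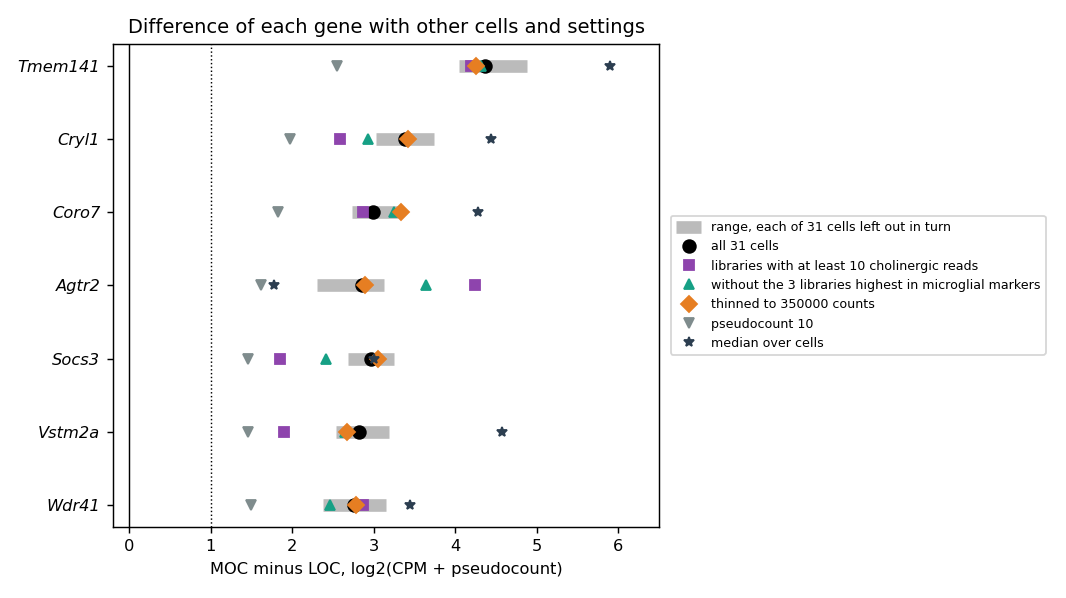
MOC minus LOC difference of each gene on the log2(CPM + pseudocount) scale with all cells (circles), with each of the 31 cells left out in turn (grey bars) and under other choices of cells, counts or scale (other symbols). The dotted line marks the rule's difference of 1, and each value shown lies above it, the lowest being that of Socs3 or Vstm2a with a pseudocount of 10, at 1.46.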

How the data were processed

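The authors deposited raw counts for each cell. A second deposited table has signal values for 20784 genes, in which each cell's raw counts are multiplied by 1 constant; its name calls it CPM with TMM. The submitters' processing notes name GRCm38, mm10 and STAR 2.5.2, and also limma, edgeR, DESeq2 and bcl2fastq, without roles. The sources used here do not give the counting tool or its annotation. The libraries keep no strand. Cells were grouped by the cell type in the labels.

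CPM used the total over 55421 mouse rows as library size, and 19 rows of added sequences were left out (0.0173% of counts). Symbols and coordinates came from GENCODE M21 (GRCm38), which named 55154 identifiers. edgeR 4.0.16 and DESeq2 1.42.0 (R 4.3.3) gave size factors for alternatives only. Summaries were computed in Python 3.11.15 and tested on simulated data. Each group is 1 sample, so no test was run. Differences use log2(CPM + 1), a scale that shrinks those of low genes. The genes named were the 7, their overlapping genes, their 3 most alike genes, those at the edge of the 12 widest and fixed partners or rule-meeting genes of related lists. The members and lists were chosen with earlier results of these data known. Alternatives left out single cells, whole sets of libraries or reads, or changed scaling, pseudocount, averaging or thresholds.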

Additional observations from a re-analysis of the deposited data

How the results depend on the processing

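The count of 7 of 7 genes meeting the size rule in MOC held in each alternative but 1. The choice of the genes fixed that count with all cells. It was 5 in libraries with at least 10 cholinergic reads, where the ratios of Socs3 and Wdr41 were below 2. With each of the 31 cells left out in turn the count was 7, the median difference lay between 2.84 and 3.14, and the difference in genes detected per cell, whose direction the choice of the genes fixed, between 2.16 and 2.51. The median difference of 2.96 was 1.62 with a pseudocount of 10 and 4.28 with medians in place of means over cells. That of Agtr2 was 6.11 with summed counts. TMM library sizes, DESeq2 size factors and the authors' normalized values gave medians of 3.02, 3.08 and 3.001. DESeq2 size factors also changed the split of all genes meeting the rule, with 61.1% of them in MOC against 48.3% with total counts (57.7% with TMM and 57.3% with the authors' values). With 5 reads as the threshold for detection the difference was 3.68 genes per cell. No paired analysis was possible because no result comes from a test and the numbers in the labels only name cells. Depth limits single cells: a count of 0 allows up to 8.42 CPM in the shallowest library.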

Other observations

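Chrna2, the gene of the alpha 2 subunit of nicotinic acetylcholine receptors, had reads in 4 MOC cells, with 312 in cell 2, 187 in cell 3, 144 in cell 10 and 4 in cell 4. The first 3 of these cells also had the most reads of Agtr2 (838, 285 and 193). MOC cells 1 and 6, with 107 and 26 reads of Agtr2, had 0 reads of Chrna2. In LOC there were 8 reads of Chrna2, 7 in cell 1 and 1 in cell 8, neither of which held a read of Agtr2. The overlap was picked out after the values were seen.

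Prima1 had 22.9 CPM in MOC and 1.12 CPM in LOC, and reads in 11 of 13 MOC and 5 of 18 LOC cells. MOC cells 8 and 13 had 0 reads of Prima1, and these were also the MOC cells with the highest levels of Socs3, a pairing also picked out after the values were seen. These 2 cells had 0 and 1 cholinergic reads. MOC cell 9, with 6 cholinergic reads, had the most reads of Prima1, at 97.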
